A study of Homo sapiens with 28 samples.

Results

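The comparison described here is that of SK-N-MC cells 48 h after induction of a hairpin against FLI1 with cells in which a scrambled hairpin was induced for the same time. Its members are the 3 shFLI1 and the 5 shScramble libraries of 48 h, 8 of the 28 libraries of the series. They were chosen by the column names of the table of that time, which match the sample titles, and no measured value was used. SK-N-MC is an established Ewing sarcoma line, so all libraries stem from a single tumour line. All cultures, controls included, received 100 ng/ml doxycycline, the drug that switches the hairpin on. The shFLI1 cells carry the genotype label EWS-FLI1 knockdown. The shScramble cells of 48 h carry the genotype label CHD4 knockdown, although their titles and treatment labels say shScramble, and they were used as controls on the latter. Stranded total RNA libraries were read as paired ends, and the labels name the samples of a group biological replicates without saying what separates them, so p-values measure the spread between these samples.

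Ewing sarcoma cells depend on EWS-FLI1, in which the amino-terminal part of the RNA-binding protein EWS is fused to the DNA-binding ETS domain of FLI1. The fusion protein opens chromatin and activates genes at repeats of the sequence GGAA, and represses other genes, in part by displacing other ETS factors. Loss of the fusion is known to shift Ewing cells from a round, proliferating state toward an adherent one with mesenchymal features, which is why genes of adhesion, matrix, growth control and signalling were followed here.

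The 3 shFLI1 libraries held 46868774 to 49232890 recovered reads and the 5 shScramble libraries 47972710 to 59291237. The mitochondrial ribosomal RNAs made up 22.1 to 22.5 percent of reads with shFLI1 against 16.2 to 17.98 percent in shScramble, and the 10 most abundant genes took 28.9 to 30.5 against 20.6 to 22.7 percent. Both shares were higher in every shFLI1 library, and their part in the results was not tested. Replicates 1 and 2 of shScramble held more reads of processed pseudogenes (0.317 to 0.372 percent) than replicates 3 to 5 (0.244 to 0.25 percent) and the shFLI1 libraries (0.239 to 0.254 percent). Results are therefore also given against replicates 3 to 5 alone where this changed them, save that not every shift in a list count is printed. Over the 26 gene lists described below, these controls moved the count of higher members by -2 to 3 and that of lower members by -1 to 6.

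Replicate 3 of shFLI1 stood apart from replicates 1 and 2. The root mean square difference in log2 value over the tested genes was 0.352 between replicates 1 and 2, and 0.733 to 0.741 between replicate 3 and either of them. Of 15288 tested genes whose mean in either group was at least 100 normalised counts, 260 were at least 2-fold higher in replicate 3 than in both others, against 4 and 3 such genes for replicates 1 and 2. In all, 115 genes had at least 100 counts in replicate 3 and at most 10 in each of the other 27 libraries of the series, while every other library had 0 or 1 such genes. They held 0.0735 percent of its reads. SPP1, which encodes the bone and kidney matrix protein osteopontin, was at 0, 0 and 3453 normalised counts in replicates 1, 2 and 3. The cadherin gene CDH16 was at 314 in replicate 3 and at most 1.1 elsewhere, and the glucuronosyltransferase gene UGT2B7 at 319 and at most 1.15. GPNMB, a glycoprotein of lysosomes and melanosomes, had 371, 376 and 13669 counts in replicates 1, 2 and 3, and the lysosomal protease gene CTSK had 315, 244 and 4151. The cause was not tested. Beside each single-gene result that rests on this library, its value without it is given. Over the 26 gene lists described below, leaving it out moved the count of higher members by -3 to 2 and that of lower members by -4 to 1. Not every such shift is printed.

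**Figure D1:**
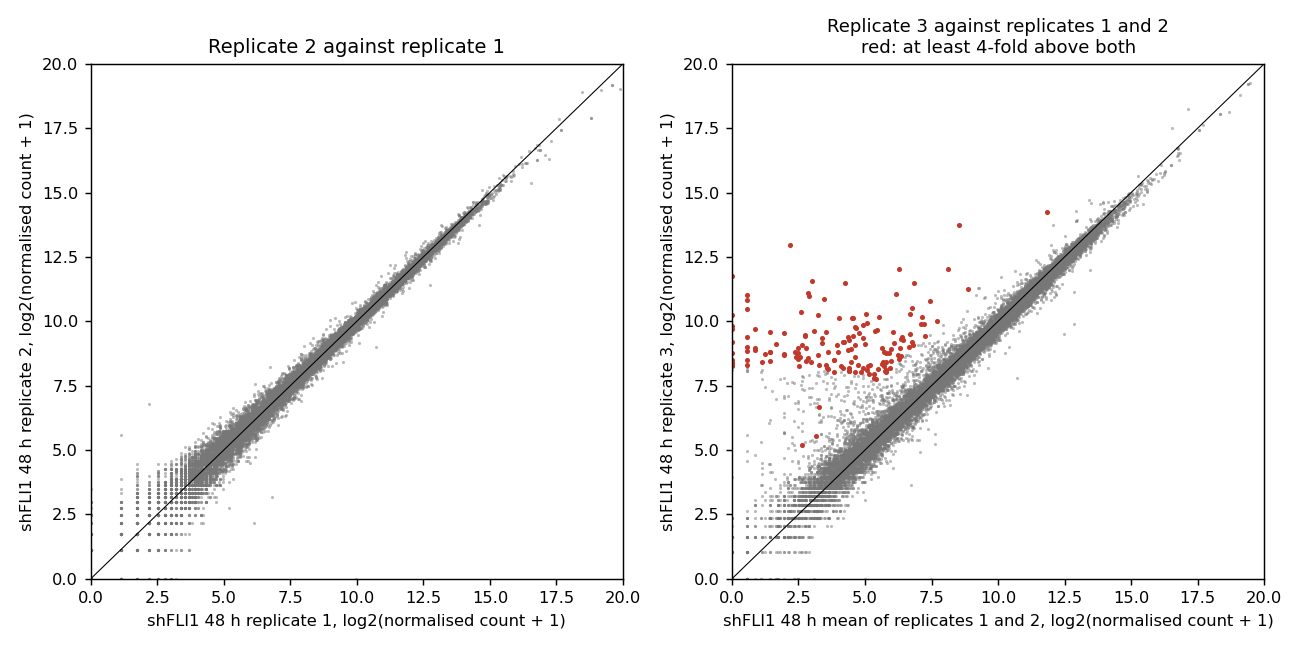
Log2(normalised count + 1) of all tested genes in the 48 h shFLI1 libraries, replicate 2 against replicate 1 (left) and replicate 3 against the mean of replicates 1 and 2 (right). Each point is a gene, the line marks equal values, and red points are the 155 genes with a mean of at least 100 in either group that were at least 4-fold higher in replicate 3 than in both others.

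FLI1 checks the hairpin. The 5 shScramble libraries held 3632, 3091, 3920.2, 4306 and 3963 normalised counts and the 3 shFLI1 libraries 1612, 1829.6 and 1566. All shFLI1 values lay below all control values (log2 -1.17, SE 0.12, limma adjusted p = 6.15e-07). Reads of the fusion and of an unfused FLI1 gene cannot be told apart in these counts. EWSR1, the other fusion partner, had 15484, 14459, 17781, 19001 and 17898 counts in shScramble and 12828, 13067 and 13700.5 with shFLI1 (log2 -0.35, adjusted p = 0.00768). That call ended with quantile normalisation, at log2 -0.09.

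After 48 h, 63.9% of the 21025 tested genes were called at an adjusted p of 0.05, 32.2% higher and 31.7% lower. At least 2-fold changes made up 17.5% and 13.7%. The median log2 fold change of all tested genes was 0.01. Against shScramble replicates 3 to 5 alone, 13827 genes were called and 12534 of the 13429 were shared. Without shFLI1 replicate 3, 12388 were called and 12074 were shared, and no shared gene changed direction under either setting. With so many genes called, the share of a list called higher or lower has to be read against these background shares. No test was made of a list, and lists are described by their counts and medians. In bulk RNA, fewer cells that express a gene and less RNA per cell cannot be told apart.

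**Figure D2:**
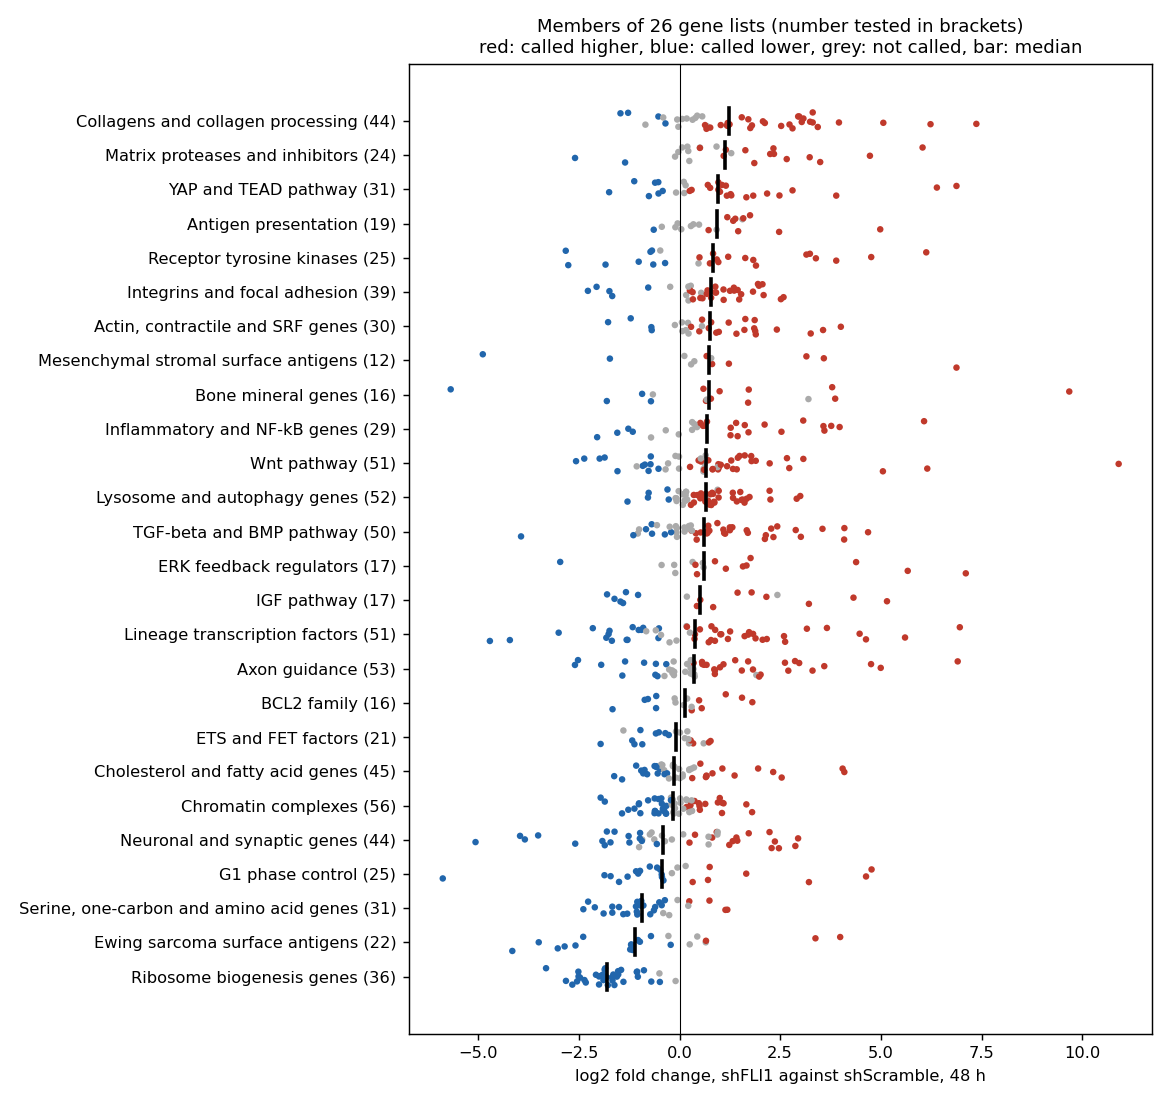
Log2 fold change of each tested member of 26 gene lists with shFLI1 against shScramble at 48 h. Points are genes, coloured by their call, and black bars are list medians, which run from -1.79 for ribosome biogenesis genes to 1.22 for collagens and collagen processing.

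Components of transforming growth factor beta (TGF-beta) and bone morphogenetic protein (BMP) signalling rose at several levels of the pathway. Ligands of this family bind paired receptor kinases, which pass the signal to SMAD proteins. Of 50 tested members, 29 were higher and 7 lower, beside 32.2% and 31.7% of all genes, with a median log2 fold change of 0.60. TGFBR3, the co-receptor betaglycan (chromosome 1, 91680343 to 91906335 on GRCh38), had 783, 767, 692, 618 and 671 normalised counts in the 5 shScramble libraries and 21454, 18181 and 15179 in the 3 shFLI1 libraries. Every shFLI1 value was far above every control value (log2 4.68, SE 0.13, adjusted p = 6.76e-12). TGFBR2, the receptor that binds the ligand first, had 159.8, 166, 164, 147 and 129.8 counts in shScramble and 905, 977 and 638 with shFLI1, again without overlap (log2 2.43). Of the ligand genes, TGFB2 had 179, 78.3, 43.7, 39.2 and 65.4 counts in shScramble and 1135, 1106 and 1353 with shFLI1 (log2 4.09), while TGFB1 was lower at 553, 530.1 and 633 against 765 to 1028 (log2 -0.69). BMP ligands went both ways. BMP6 had 1918, 1869.9, 2002, 1993 and 2139 counts in shScramble and 106, 152 and 132 with shFLI1 (log2 -3.94, adjusted p = 6.51e-11), whereas BMP5 (log2 2.89), GDF5 (3.01) and BMP2 (2.12) rose. LTBP1, which holds TGF-beta in a latent form in the matrix, went from between 1419.6 and 1914 to 21123, 25660.2 and 15765 counts (log2 3.55), and LTBP2, LTBP3 and LTBP4 were also called higher (2.28, 1.25 and 1.11). Among the signal-carrying SMADs, SMAD3 rose (log2 1.31), and SMAD1, SMAD2 and SMAD5 were lower (-0.68, -0.21 and -0.36). The inhibitory SMAD6 and SMAD7 rose (1.13 and 0.71). Target genes of BMP signalling differed: ID1 rose (2.14), ID3 rose from between 2868 and 4733 to 15610.5, 14738 and 11060.1 counts, and ID2 fell (-1.15).

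The Wnt pathway, in which secreted ligands act through Frizzled receptors and β-catenin or through other receptors such as ROR2, had 28 of 51 tested members higher and 11 lower (median log2 0.65). The counts were 29 and 14 against shScramble replicates 3 to 5 alone. ROR2, a receptor of WNT5A (chromosome 9, 91563091 to 91950162 on GRCh38), had 161, 73.2, 101, 66.3 and 125 counts in shScramble and 3524, 3848 and 2745 with shFLI1. The groups did not overlap (log2 5.05, SE 0.40, adjusted p = 6.59e-08). WNT5A itself was not called (log2 -0.28, adjusted p = 0.176), but against shScramble replicates 3 to 5 alone it was lower (-0.58, adjusted p = 9.15e-05). Of the Frizzled genes, FZD4, FZD7 and FZD5 rose by log2 2.24, 1.89 and 1.42, and FZD1 and FZD3 were lower (-0.91 and -0.72). The secreted antagonist FRZB went from between 8.4 and 14.4 counts to 1074, 563 and 965 (log2 6.15). TCF7L1 and TCF7L2, which bind DNA with β-catenin, rose (2.73 and 1.62), as did CTNNB1, the gene of β-catenin (0.83). Genes that report β-catenin activity did not move as one. APCDD1 was at 25848, 27757, 22253, 20490.3 and 20763 counts in shScramble and at 6879, 7067 and 5414 with shFLI1 (log2 -1.86), NKD2 was also lower (-1.54), and AXIN2 was higher (0.61).

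YAP and TAZ are coactivators that bind TEAD factors when cells spread and come under tension. In this list 20 of 31 members were higher and 7 lower (median 0.96). YAP1 had 1505, 1803, 1725, 1971 and 1343 counts in shScramble and 3751, 3895 and 4348 with shFLI1 (log2 1.27), and WWTR1, which encodes TAZ, rose by 1.83. TEAD3 rose (1.66) and TEAD4 fell (-1.75). Of their known targets, CCN2, the secreted connective tissue growth factor, had 385, 451, 195, 297 and 249 counts in shScramble and 1943, 2298 and 2129 with shFLI1 (log2 2.81, SE 0.31, adjusted p = 1.9e-06). All shFLI1 values exceeded all control values. ANKRD1, an ankyrin repeat protein of stretched cells, had 12.5, 41.2, 0, 4.67 and 1.09 counts in shScramble and 256, 529 and 861 with shFLI1 (log2 6.39), with all shFLI1 values above all controls, or 7.75 against shScramble replicates 3 to 5 alone. CCN1, AXL and NT5E rose by log2 2.48, 3.89 and 6.88, and F3, the gene of tissue factor, fell (-1.12). The upstream kinase LATS2 was higher (0.70) and LATS1 lower (-0.42).

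The 250 bases before the start of CCN2 (chr6:131951373-131951622, minus strand) and ANKRD1 (chr10:90921088-90921337, minus strand) are printed here because both genes rose and both stretches hold more than 1 copy of GGAATG, the core of the TEAD motif, read on either strand and shown in capitals. The sequences are those of RefSeq on GRCh38.p14, given 5′ to 3′ on the strand of the gene.
CCN2: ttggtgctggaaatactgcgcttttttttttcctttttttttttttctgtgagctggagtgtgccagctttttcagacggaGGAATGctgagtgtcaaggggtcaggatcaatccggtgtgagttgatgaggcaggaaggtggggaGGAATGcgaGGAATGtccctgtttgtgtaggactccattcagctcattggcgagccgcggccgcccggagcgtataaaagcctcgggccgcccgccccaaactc
ANKRD1: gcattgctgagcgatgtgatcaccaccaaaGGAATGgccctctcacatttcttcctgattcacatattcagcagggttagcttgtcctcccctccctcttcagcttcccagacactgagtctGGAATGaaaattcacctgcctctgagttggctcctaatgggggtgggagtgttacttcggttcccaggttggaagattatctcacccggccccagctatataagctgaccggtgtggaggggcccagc
CCN2 has 3 copies and ANKRD1 2. Over all tested genes with such a sequence, 1158 of 12147 (9.53 percent) held GGAATG or its reverse complement in these 250 bases, and in the YAP and TEAD list 3 of 24. A match describes the sequence and is not a measured binding site.

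Genes of the actin cytoskeleton and of cell attachment were mostly higher. Of 30 actin, contractile and SRF-related genes 19 rose and 4 fell (median log2 0.76), and of 39 integrins and focal adhesion genes 28 rose and 5 fell (0.78). CALD1, which encodes the actin-binding protein caldesmon (chromosome 7, 134744252 to 134970728 on GRCh38), had 2895, 3108, 1887, 2147 and 1651 counts in shScramble and 26820.2, 35040.5 and 20644 with shFLI1. The groups lay far apart (log2 3.57, SE 0.21, adjusted p = 3.51e-09). The smooth muscle gene LMOD1 rose from between 12 and 47.4 to 426, 561 and 381 counts (log2 4.01). PALLD, which links actin to adhesions, rose by 2.42. MYLK, the kinase of myosin light chains, had 1476, 1529, 1108, 1069 and 1309 counts in shScramble and 4222, 5942 and 2531 with shFLI1 (log2 1.63). Tropomyosins coat actin filaments and did not change together. TPM1, TPM2 and TPM4 were higher (log2 3.26, 1.88 and 0.98), while TPM3 had 15377, 15779, 16869, 16087 and 16663 counts in shScramble and 10416, 10754 and 8950.2 with shFLI1 (log2 -0.69). Of the actins, ACTG1 rose (0.73), ACTB was not called (0.21) except without replicate 3 (0.31, adjusted p = 0.0463), and ACTA2 was called (1.86) although replicate 3, at 4020.3 counts, lay within the control range of 1128 to 4671. Vinculin (VCL), which ties integrins to actin, went from between 3361 and 4941 to 19007, 18969 and 13549 counts (log2 2.09). Talin 2 (TLN2), tensin 2 (TNS2) and kindlin 2 (FERMT2) rose by 2.52, 2.58 and 2.06. Related genes fell: TNS1 was at log2 -1.74 and FERMT1 at -2.28. Integrin genes ITGA7, ITGB8 and ITGAV rose (1.97, 1.95 and 1.53), and ITGB2, known from white blood cells, fell (-1.67).

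SRF, which with MRTF coactivators binds the CArG box, was not called (log2 0.22, adjusted p = 0.265), and MRTFA and MRTFB rose (0.91 and 0.56). A CArG box is CC, then 6 bases that are each A or T, then GG. It was found in the 250 bases before 7 of 26 genes of the actin list that had a RefSeq sequence, and before 115 of 12147 tested genes (0.947 percent). The list had been written in part from known SRF targets, so this share is no independent result. The stretches of MYLK (chr3:123620549-123620798, minus strand) and TPM4 (chr19:16067288-16067537, plus strand), 2 genes that rose, are shown with the box in capitals. A single RefSeq start was used for each gene, and a gene can have others. Whether the start used for MYLK is that of the transcript encoding the kinase was not checked.
MYLK: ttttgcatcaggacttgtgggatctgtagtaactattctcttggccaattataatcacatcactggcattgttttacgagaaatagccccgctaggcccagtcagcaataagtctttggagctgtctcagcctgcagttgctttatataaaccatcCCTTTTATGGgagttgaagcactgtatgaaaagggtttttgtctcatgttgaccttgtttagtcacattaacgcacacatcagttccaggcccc
TPM4: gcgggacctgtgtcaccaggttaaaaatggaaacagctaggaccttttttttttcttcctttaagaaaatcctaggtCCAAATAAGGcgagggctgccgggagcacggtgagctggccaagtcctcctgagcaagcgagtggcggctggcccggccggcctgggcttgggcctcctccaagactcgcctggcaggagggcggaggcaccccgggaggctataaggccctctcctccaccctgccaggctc

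**Figure D3:**
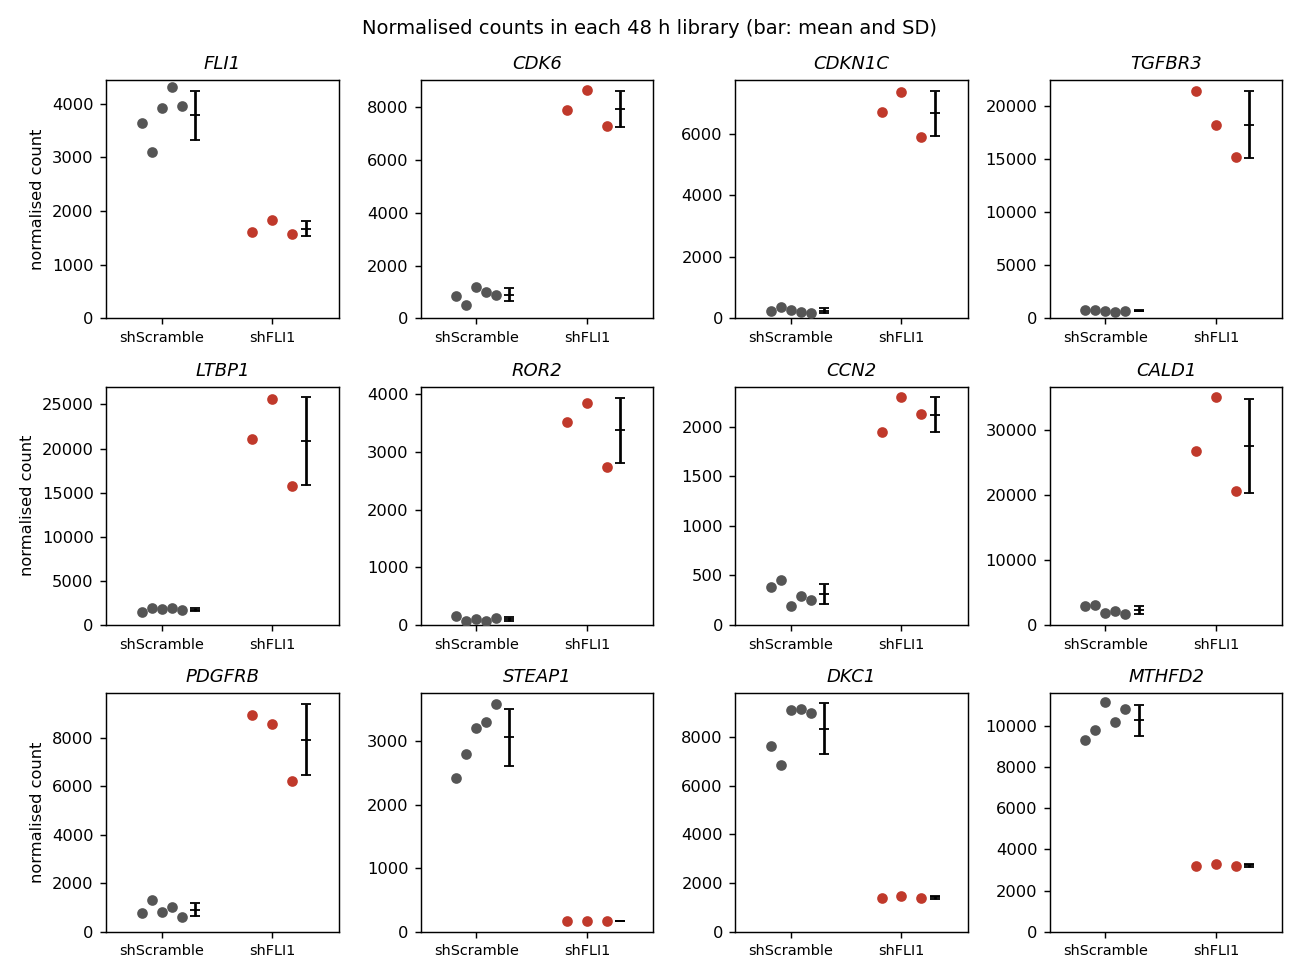
Normalised counts of 12 genes in each 48 h library on linear axes that start at 0, with grey points for the 5 shScramble and red points for the 3 shFLI1 libraries. Bars give the mean and SD of each group, and in none of the 12 panels do the groups overlap.

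Genes of the extracellular matrix were mostly higher. Of 44 collagens and collagen-processing enzymes 29 were higher and 4 lower, with the highest median of all 26 lists (log2 1.22). COL5A2, of fibrillar collagen V, had 7828, 10274, 5779, 5754 and 5214 counts in shScramble and 74697, 69774 and 49971 with shFLI1 (log2 3.24, adjusted p = 3.49e-09). Its partner COL5A1 rose by 2.07 and COL3A1 by 2.95. COL8A1, a network-forming collagen, went from between 0 and 11.6 to 424, 719 and 192 counts (log2 6.23, or 7.04 against shScramble replicates 3 to 5 alone), and COL25A1, a membrane collagen, from between 216 and 483 to 5800.3, 5884 and 4861 (3.96). The chains of collagen I moved in opposite directions. COL1A1 had 1326, 1711, 796, 757 and 884 counts in shScramble and 347, 493 and 308 with shFLI1 (log2 -1.47), and COL1A2 had 7.14, 14.4, 5.09, 1.87 and 3.27 in shScramble and 59.1, 55.2 and 68.5 with shFLI1 (3.31). The basement membrane genes COL4A1 and COL4A2 were not called (log2 0.32 and 0.39). LOX, which cross-links collagen, rose by 2.52. Among proteases and their inhibitors, 13 of 24 were higher and 2 lower (median 1.12). PLAU, the urokinase plasminogen activator, went from between 2.03 and 7.14 to 384, 454 and 205 counts (log2 6.04). MMP2, a gelatinase, had 255, 215, 269.6, 269 and 236 counts in shScramble and 3025, 3249.8 and 2244 with shFLI1 (log2 3.49), and its activator MMP14 rose by 1.86. MMP9, the other gelatinase, fell from between 27.8 and 38.2 to 3.54 to 7.27 counts (-2.59).

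Growth factor signalling changed at the level of receptors, binding proteins and feedback inhibitors. In the insulin-like growth factor (IGF) list 9 of 17 members rose and 6 fell. The IGF-binding protein gene IGFBP7 had 156, 148, 101, 102 and 106 counts in shScramble and 4825, 4572 and 3637 with shFLI1 (log2 5.15, SE 0.27, adjusted p = 1.16e-09). IGFBP5 and IGFBP2 rose by 4.32 and 3.21. The ligand IGF1 fell (-1.40), as did the adaptors IRS1 and IRS2 that couple the receptor to its effectors (-1.33 and -1.61), and the protease PAPPA, which cleaves IGF-binding proteins (-1.47). IGF1R was called higher by 0.43, a call that ended without replicate 3 (adjusted p = 0.0618). Of 25 tested receptor tyrosine kinases 15 were higher and 8 lower, or 12 and 8 without replicate 3. FLT1, a receptor of vascular endothelial growth factor, had 13.4, 29.9, 17.3, 21.5 and 8.72 counts in shScramble and 1256, 1789 and 853 with shFLI1 (log2 6.13). The platelet-derived growth factor receptors PDGFRB and PDGFRA rose by 3.15 and 4.76, and MET, the receptor of hepatocyte growth factor, by 1.90. ALK, FGFR4 and FLT4 fell (-2.76, -2.83 and -1.84). EGFR was called higher (3.24) on 428 counts in replicate 3, against 0 and 4.6 in replicates 1 and 2, and the call ended without that library (adjusted p = 0.397) and against shScramble replicates 3 to 5 alone (adjusted p = 0.0941).

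Regulators of ERK signalling, many of them feedback inhibitors that the pathway itself induces, were higher in 10 of 17 cases and lower in 1. Without replicate 3 they were higher in 8 and lower in 1, as SPRED1 and the phosphatase gene DUSP8 were no longer called (adjusted p = 0.087 and 0.0807). SPRY1, of the Sprouty family, had 0, 0, 6.1, 3.73 and 5.45 counts in shScramble and 431, 501 and 305 with shFLI1. The groups did not overlap (log2 7.11, SE 0.62, adjusted p = 1.74e-07), and against shScramble replicates 3 to 5 alone the change was 6.08. PHLDA1 rose by 4.39 and SPRED2 by 1.76. The adaptor SH2B3, also called LNK, fell from between 6044 and 7563 to 957, 1012 and 753 counts (-2.96). Against shScramble replicates 3 to 5 alone 9 were higher and 2 lower, the phosphatase gene DUSP7 among the latter (-0.66, adjusted p = 0.00188).

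Control of the G1 phase moved in opposing ways. Of 25 members 15 were lower and 7 higher (median -0.44), and 5 of the 6 tested inhibitors of cyclin-dependent kinases were among those that rose. CDKN1C had 235, 367, 260.5, 213 and 176 counts in shScramble and 6720.4, 7379 and 5909 with shFLI1 (log2 4.77, adjusted p = 2.62e-10). CDKN1A, CDKN1B, CDKN2A and CDKN2C rose by 4.63, 1.66, 0.75 and 0.71, and CDKN2D was lower (-0.74). CDK6, a kinase that drives G1, rose as well, from 861, 508, 1191, 978 and 888 counts in shScramble to 7913, 8642 and 7283 (log2 3.21, SE 0.28, adjusted p = 2.01e-07), while its relative CDK4 was lower (-0.48). CCND2 fell (-1.50), and CCND3 was not called (-0.05), although it was lower against shScramble replicates 3 to 5 alone (-0.23, adjusted p = 0.0471). Activating E2F factors E2F1, E2F2 and E2F3 fell (-1.08, -1.86 and -1.03). In the BCL2 family, which sets the threshold for cell death, 6 of 16 were higher and 5 lower. These shares were close to the 32.2% and 31.7% of all genes. The death-promoting BCL2L11 had 808, 970.0, 973, 1054 and 1021 counts in shScramble and 2891, 3695 and 3580.1 with shFLI1 (log2 1.81), BMF rose by 1.55, and BID fell (-1.66). The pro-survival gene BCL2 was lower (-0.86) and MCL1 was not called (-0.10). BCL2L1 was not called (0.10), but was higher against shScramble replicates 3 to 5 alone (0.29, adjusted p = 0.0263).

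Ribosome biogenesis genes, which encode RNA polymerase I subunits and the nucleolar proteins that process ribosomal RNA, had the lowest median of the 26 lists. Of 36 members 34 were lower and 0 higher (median log2 -1.79), with 33 showing no overlap between groups, beside 30.6% of all tested genes. Without replicate 3, 33 were lower, and against shScramble replicates 3 to 5 alone 36. DKC1, the pseudouridine synthase dyskerin (chromosome X, 154762742 to 154777689 on GRCh38), had 7648, 6855, 9097, 9173 and 8995 counts in shScramble and 1370.1, 1488 and 1409 with shFLI1 (log2 -2.54, SE 0.11, adjusted p = 3.51e-10). NOP16 had 2361, 1769, 3016, 3026 and 3066 counts in shScramble and 334, 408 and 359 with shFLI1 (-2.82), and the helicase gene DDX21 10345, 8308, 13889, 13555 and 14376 in shScramble and 1932, 2269 and 2056 with shFLI1 (-2.51). In none of these genes did the groups overlap. RRS1 fell by log2 3.31, MYBBP1A by 2.66 and the polymerase subunit gene POLR1B by 2.00. RRN3 and POLR1D, both of the polymerase I machinery, were not called (log2 -0.50 and -0.10), and both were lower against shScramble replicates 3 to 5 alone (-0.87 and -0.24, adjusted p = 4.36e-07 and 0.0335). Small nucleolar RNAs, which guide the modification of ribosomal RNA, were lower in 186 of 255 and higher in 3 (median -1.17). Without replicate 3 they were lower in 178 and higher in 4. They took 0.428, 0.363 and 0.86 percent of reads in shFLI1 replicates 1, 2 and 3, against 0.772 to 0.926 percent in shScramble, so that replicate 3 was within the control range of this share.

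Serine, one-carbon and amino acid genes also fell broadly, in 23 of 31 with 4 higher (median -0.93). MTHFD2, of the mitochondrial folate cycle, had 9318, 9823, 11182, 10183 and 10829 counts in shScramble and 3202, 3291 and 3173 with shFLI1 (log2 -1.67, SE 0.08, adjusted p = 7.9e-10). MTHFD1L, which acts next to it, fell by 2.39. SLC7A5, which imports large neutral amino acids, had 6762, 6254, 10029, 9584 and 9179 counts in shScramble and 1482, 1757 and 1894 with shFLI1 (-2.27). The serine synthesis gene PSAT1 fell (-1.67), whereas PHGDH, which starts that pathway, was not called (-0.05, adjusted p = 0.749). The members that rose included SLC38A2, a glutamine transporter (1.19). Lipid genes divided by branch. In the cholesterol and fatty acid list 13 of 45 were higher and 15 lower, beside 32.2% and 31.7% of all genes. The fatty acid synthesis genes SCD, ACLY and FASN fell (-1.62, -1.08 and -0.95), and 14 of 20 cholesterol synthesis genes were not called, with 5 lower and 1 higher. Against shScramble replicates 3 to 5 alone 10 of them were lower and 1 higher, and of the whole list 21 were lower and 13 higher. Without shFLI1 replicate 3 the whole list had 11 lower and 15 higher members. ABCG1, which exports cholesterol, rose from between 16.1 and 54.6 to 454, 384 and 559.6 counts (4.05), and MYLIP, which degrades the LDL receptor, by 2.54. ABCA1 and APOE, also called higher, had most of their counts in replicate 3 (15.4, 11.5 and 358, and 529, 688 and 2513), and without it were at log2 2.54 and 1.27, instead of 4.09 and 1.95. ABCA1 was at 4.72 against shScramble replicates 3 to 5 alone.

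**Figure D4:**
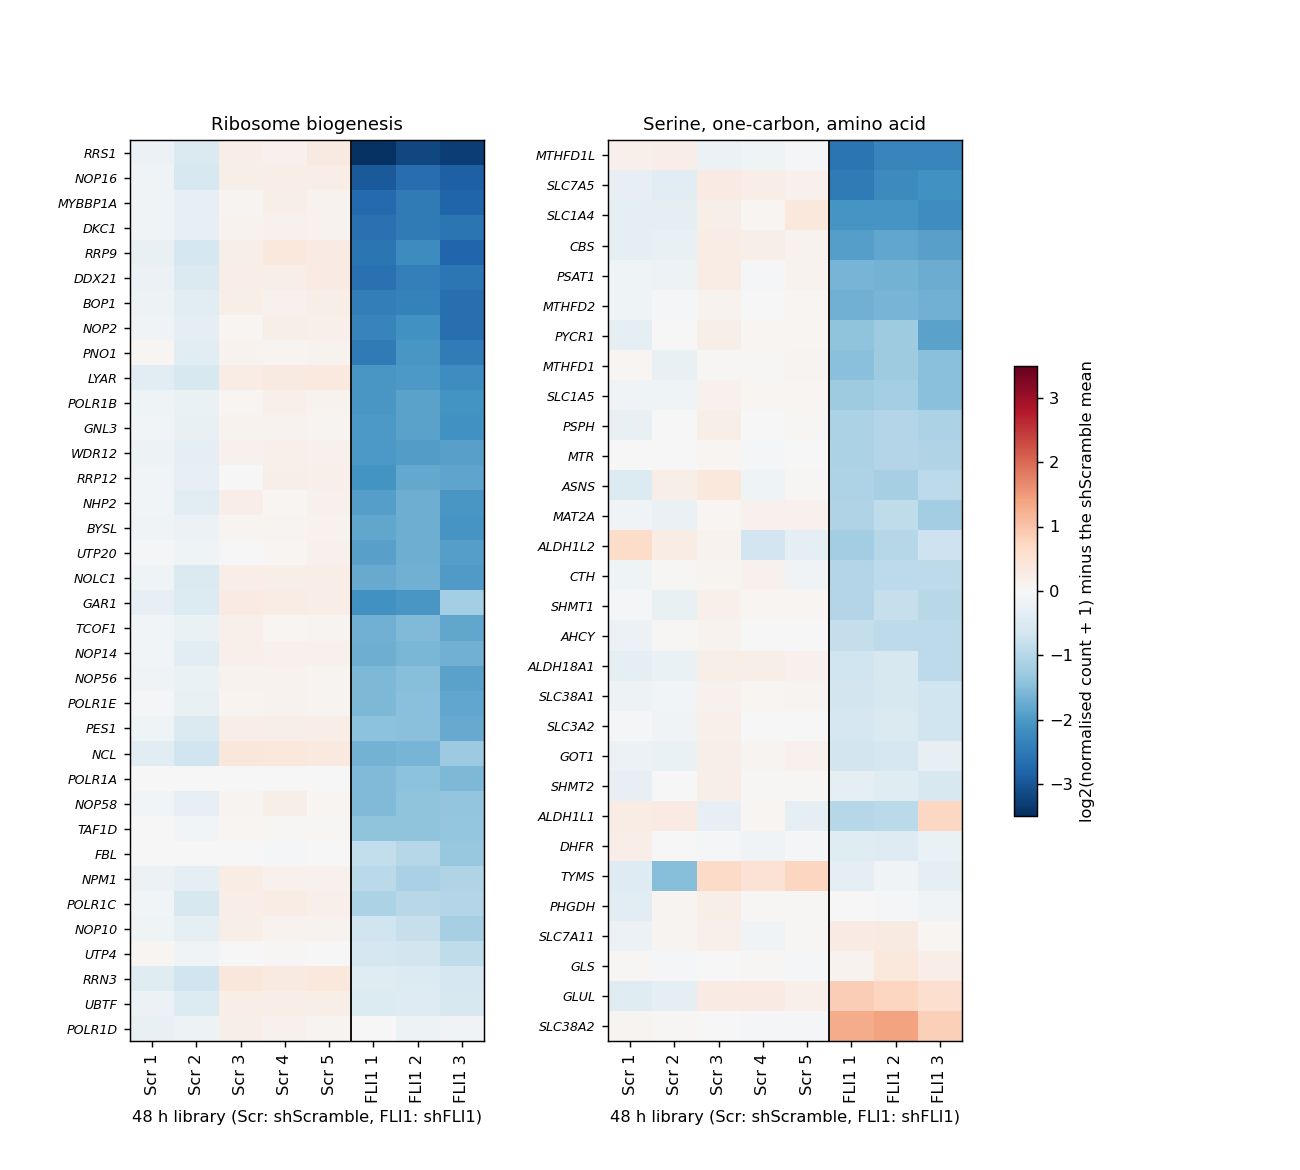
Log2(normalised count + 1) of ribosome biogenesis genes (left) and of serine, one-carbon and amino acid genes (right) minus the shScramble mean of the gene, for the 5 shScramble and 3 shFLI1 libraries of 48 h. Blue marks lower and red higher values, and 34 of 36 and 23 of 31 tested genes were called lower (1 tested member of the second list is not drawn).

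Lysosome and autophagy genes rose in 33 of 52 and fell in 5 (median 0.65), or 31 and 5 without replicate 3. WIPI1, which acts in the formation of autophagosomes, had 150.0, 106, 126, 114 and 131 counts in shScramble and 979, 1097 and 779.8 with shFLI1 (log2 2.91, SE 0.30, adjusted p = 1.02e-06). The cathepsin gene CTSF had 177, 209, 155, 187 and 183 counts in shScramble and 1564, 1465 and 1348 with shFLI1, without overlap, and CTSO rose by 2.26. CTSK was called (2.24), and without replicate 3 was at 0.94. MITF and TFEB, factors that activate lysosomal genes, rose by 1.61 and 1.32, and ATG16L1 fell (-1.29). The lysosomal membrane gene LAMP1 was not called (0.13), and LAMP2 rose (0.83).

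Inflammatory and NF-kB genes were higher in 18 of 29 and lower in 4. NFKB1 had 1124, 1081, 985, 997 and 1059.9 counts in shScramble and 3100.4, 2663 and 2809.7 with shFLI1 (log2 1.44), and TNFRSF12A, a receptor that activates NF-kB, rose by 2.11. The interleukin gene IL1B rose from between 6.54 and 23.2 to 128, 115 and 97.6 counts (3.07). ACKR3, a scavenging chemokine receptor, and FAS, a death receptor, fell (-2.05 and -1.16). Antigen presentation genes were higher in 9 of 19 and lower in 1. HLA-E had 537, 503, 833, 737 and 808 counts in shScramble and 2502, 2172 and 2111 with shFLI1 (log2 1.75). TAPBP and TAP1, which bring peptides to class I molecules, rose (1.39 and 1.58), as did ERAP2, which trims peptides (4.98). The class I genes HLA-B and HLA-C were not called, and since they resemble each other their reads may be divided unevenly. HLA-B had 429.9, 508 and 2464 counts in shFLI1 replicates 1, 2 and 3, so its fitted log2 value of 0.92 rests on replicate 3 and was 0.12 without it.

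Lineage transcription factors changed in both directions, 28 of 51 higher and 16 lower. The counts were 27 and 19 against shScramble replicates 3 to 5 alone, and 25 and 15 without shFLI1 replicate 3. Mesenchymal factors were among the largest rises. PRRX1, of limb and craniofacial mesenchyme, had 3.57, 4.12, 4.07, 3.73 and 2.18 counts in shScramble and 514, 896 and 374 with shFLI1 (log2 6.96, SE 0.49, adjusted p = 1.89e-08). FOXC1 had 56.2, 47.4, 86.5, 61.6 and 52.3 counts in shScramble and 2995, 3852 and 2191 with shFLI1 (5.60), and SNAI2, a repressor of epithelial genes, rose by 4.63. EBF1, known from B cell and fat cell development, rose from 663, 406, 405, 326 and 371 to 9978, 9459.6 and 8702 counts (4.47). RUNX2, the bone factor, rose (2.17) and its relative RUNX3 fell (-1.68). Factors known from the nervous system fell, namely POU3F2 (-1.82), SOX2 (-1.74) and BCL11B (from between 7659 and 9102 to 1062, 1086 and 995 counts), and the muscle stem cell factor PAX7 fell from between 153 and 304 to 4.72, 9.2 and 8.31 counts (-4.71). Of the bone mineral genes, 9 of 16 were higher and 4 lower. SPARC, a collagen-binding protein of bone, rose by 1.72, and ALPL, the alkaline phosphatase of mineralising cells, fell (-1.81).

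With all 5 controls, neuronal and synaptic genes were nearly evenly divided, with 15 of 44 higher and 16 lower (median -0.40), close to the 32.2% and 31.7% of all genes. The counts were 16 higher and 20 lower against shScramble replicates 3 to 5 alone. SYN1, a synaptic vesicle protein, had 304, 436, 335, 359 and 365 counts in shScramble and 23.6, 24.1 and 18.7 with shFLI1 (log2 -3.96), and the peptide gene CCK had 3190.2, 2461, 5263, 4613 and 6124 in shScramble and 360.2, 258 and 251 with shFLI1 (-3.84). The microtubule genes MAPT and TUBB3 fell (-2.59 and -1.80), and DCX, of migrating neurons, rose (2.95). SV2B was called lower (-5.07) with 28.3, 20.7 and 855 counts in shFLI1 replicates 1, 2 and 3 against 1897 to 3843, and stood at -6.76 without replicate 3. Axon guidance genes were higher in 25 of 53 and lower in 10. The counts were 24 and 8 without shFLI1 replicate 3, and 28 and 10 against shScramble replicates 3 to 5 alone. UNC5C, a netrin receptor, had 5.36, 9.28, 3.05, 1.87 and 3.27 counts in shScramble and 559.8, 591 and 667 with shFLI1 (log2 6.91, adjusted p = 4.65e-08). Its relative UNC5B rose (2.97) and UNC5A fell (-2.60). The semaphorin receptor PLXNA2 had 117, 97.9, 51.9, 73.7 and 45.8 counts in shScramble and 2153, 2378 and 2533 with shFLI1 (5.00), and the ligands SEMA3A and SEMA5B moved apart (2.87 and -1.94). EPHB1 and EPHB3 fell (-2.52 and -1.35).

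Surface antigens that are in use or under study as Ewing sarcoma markers or targets mostly fell, with 15 of 22 lower and 3 higher (median -1.10). The counts were 13 and 3 without shFLI1 replicate 3. CD99, the diagnostic antigen, had 6148, 6106, 7744, 6834 and 7431 counts in shScramble and 3241, 2928 and 2739 with shFLI1, without overlap (log2 -1.20, SE 0.14, adjusted p = 3.89e-06). IL1RAP, a co-receptor of interleukin 1, had 14505, 14178, 18042, 16465 and 19681 counts in shScramble and 2231, 2093 and 1768 with shFLI1 (-3.02). LINGO1 and STEAP2 fell by 2.85 and 2.39. The 3 members that rose were JAG1, a Notch ligand, with 336, 413, 432, 435 and 469 counts in shScramble and 7053, 6733 and 6062 with shFLI1 (3.99), NCAM1 (3.38) and CD276 (0.66). CAV1 was called lower (-1.03), a call that ended without replicate 3 (adjusted p = 0.0632). Of the antigens used to define mesenchymal stromal cells, 6 of 12 rose and 2 fell. NT5E, also called CD73, had 2.68, 2.06, 3.05, 0 and 1.09 counts in shScramble and 263, 374 and 252 with shFLI1 (log2 6.88), whereas ENG (CD105) was not called (0.12). THY1 (CD90) was not called (0.29) with all libraries and was higher without replicate 3 (0.54, adjusted p = 0.00426). NGFR (CD271), which marks neural crest and stromal progenitors, fell from 2608, 2959, 3253, 2875 and 3667 to 120.5, 107 and 83.1 counts (-4.89).

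All 11 markers of Ewing sarcoma were called lower, beside 31.7% of all genes. The list was written with earlier results of these data known, so this is no independent result. CD99, STEAP1, LIPI, BCL11B, PAX7 and CCK of this list were also counted in lists above. The summed level of the 11 was 22753, 22270.0 and 20562 in the shFLI1 libraries against 66373 to 85136 in shScramble. In shScramble each of the 11 had a mean of at least 100 counts. Of 8 fibroblast markers 6 were higher and 1 lower. Their sum was 11791, 11846 and 8246 against 2256 to 4013, with PDGFRB alone at 8948, 8564 and 6229 with shFLI1. The fibroblast matrix genes DCN and LUM were at 56.7, 51.7 and 22.8 and at 128, 86.2 and 41.5 counts with shFLI1, against 0 to 8.25 and 1.02 to 16.5 in shScramble. For blood, endothelium and skeletal muscle the sums were small, at 270.5, 159 and 212 against 75.3 to 89.7 for blood, 106, 125 and 98.6 against 45.5 to 106 for endothelium and 182, 238 and 214 against 249 to 309 for muscle. Of 5 tested epithelial markers 2 were higher and 2 lower, and all together summed to 4779.9, 4899 and 5180.1 against 9406 to 14835, with KRT18 alone at 4315, 4452 and 3709.9 with shFLI1. CLDN4, of tight junctions, was at 94.5, 88.5 and 117 counts with shFLI1 against 11.2 to 24.1 (log2 2.35, adjusted p = 9.37e-07). CDH1 was at 2.36, 20.7 and 783, so its call rests on replicate 3 and ended without it (log2 1.23, adjusted p = 0.156), as it did against shScramble replicates 3 to 5 alone (adjusted p = 0.0669). Schwann and melanocyte markers summed to 986, 1017 and 841 against 508 to 946. The part of other cells in the results was not tested.

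Chromatin regulators went both ways, 15 of 56 higher and 24 lower (median -0.16). The counts were 13 and 29 against shScramble replicates 3 to 5 alone, and 13 and 22 without shFLI1 replicate 3. The polycomb methyltransferase EZH2 was lower, with 15804, 14474, 13742, 12502 and 15754 counts in shScramble and 7088, 7103 and 7848 with shFLI1 (log2 -0.97). SMARCA2, an ATPase of the BAF complex that binds EWS-FLI1, rose (1.66) while its alternative SMARCA4 was lower (-0.52). Of the NuRD complex, GATAD2A fell (-1.27), and CHD4 was not called (0.18, adjusted p = 0.139). CHD4 was called higher after quantile normalisation (0.42) and in the fit with a replicate block (0.25). Of the ETS and FET genes, 4 of 21 were higher and 9 lower, with FLI1 and EWSR1 among the latter. ELK1 was lower (-0.97) and ELK3 higher (0.77). ETS2 was called lower (-0.92) with overlapping groups, at 539, 622 and 537 counts against 587 to 1539.9. Against shScramble replicates 3 to 5 alone, at 1374 to 1539.9, it was at -1.35 without overlap.

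The rises and falls in normalised counts that follow were among the 10 largest in each direction once mitochondrially encoded genes, whose ribosomal RNAs held a larger share of reads with shFLI1, were left out. FN1, the gene of fibronectin, had 356214, 487492 and 289878 counts with shFLI1 against 24532 to 34153 in shScramble (log2 3.63). FSTL1, a secreted glycoprotein, went from between 6058 and 11536 to 63727, 66639 and 44861 (2.80). RN7SK, the RNA that restrains the elongation factor P-TEFb, had 312221, 304737, 363383, 337935 and 372210.0 counts in shScramble and 783017, 593266 and 611673 with shFLI1 (0.96), and RPPH1, the RNA of ribonuclease P, rose by 0.72. Each shares its reads with an overlapping annotated gene, so these values are uncertain, and the RN7SK call ended with quantile normalisation. MALAT1, a nuclear long noncoding RNA, had 89535, 99329 and 183959 counts in shFLI1 replicates 1, 2 and 3 against 35946 to 72073 (1.03), and its call ended without replicate 3 (0.71, adjusted p = 0.063). The elongation factor gene EEF1A1 had 593733, 518415 and 446895 counts against 276004 to 430536 (0.48). Its direction reversed with quantile normalisation (-0.08), and against shScramble replicates 3 to 5 alone it was not called (0.30). Of the 10 largest falls in counts, the chaperone genes HSPA8, HSP90AB1 and HSPD1 fell by log2 1.27, 1.33 and 1.82, with HSPD1 at 58836, 50753, 90210.2, 87305 and 88446 counts in shScramble and 21133, 18228 and 22975 with shFLI1. EEF1A1, HSPA8, HSPD1, PTMA and the tubulins have near-identical copies in the genome, so reads may have been divided among them. The glycolytic enzyme ENO1 fell by 1.44, and the tubulin genes TUBA1B and TUBB by 0.97 and 0.64. MYO10, the myosin of filopodia, fell from between 40166 and 55831 to 14157, 12737 and 15994 counts (-1.80), and the chromatin protein gene PTMA by 1.20.

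Among the 10 largest rises by fold, CAVIN2, a coat protein of caveolae, had 9.82, 9.28, 6.1, 11.2 and 7.63 counts in shScramble and 2799, 4623 and 1887 with shFLI1 (log2 8.23, adjusted p = 1.15e-08). The lincRNA AC096751.2 had 0, 3.09, 1.02, 0 and 0 counts in shScramble and 429, 516 and 561 with shFLI1 (8.36). Others of the 10 were MGP, an inhibitor of calcification (log2 9.68, or 10.58 against shScramble replicates 3 to 5 alone), the secreted SCUBE1 (10.58), the scavenger receptor SCARA5 (9.29), the succinate receptor SUCNR1 (8.58) and the sulfatase ARSJ (8.30). DKK1, a Wnt antagonist, and PTX3, a soluble pattern recognition protein, had at most 3 reads over all 5 shScramble libraries and are given without a fold change, at 2480.3, 3288 and 1285 and at 978, 1095 and 623 counts with shFLI1. SYT17 likewise rose from at most 3 reads to 504, 373 and 325 counts. The 2 largest falls were the antisense genes AL844908.1 and AC097381.2, from between 191 and 266 to 2.36, 2.3 and 0 and from between 359 and 560.5 to 2.36, 6.9 and 3.11 counts. CCND1, the cyclin that activates CDK4 and CDK6, fell (log2 -5.88), as did the receptor gene GPR17 (-6.01) and PHOSPHO1, a phosphatase of bone mineralisation (-5.68). Since the strand setting of the counting is not given in the sources used here, reads of an antisense gene and its partner cannot be told apart.

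The same comparison was made at 24 h with other libraries of each group, and the difference between the fold changes at both times was tested in 1 fit of all 28 libraries. Of all tested genes, 16.7% passed this test, with the later fold change above the earlier for 7.22% and below it for 9.44%. In the collagen list 16 of 44 had a higher fold change at 48 h and 0 a lower one, and in the YAP and TEAD list 14 and 2 of 31. CCN2 was at log2 -0.13 at 24 h and 2.81 at 48 h (difference 2.94, adjusted p = 1.01e-05), and CCN1 at 0.15 and 2.48. COL8A1 and COL5A3 were at -0.04 and -0.12 at 24 h and at 6.23 and 5.06 at 48 h. PDGFRA (0.33 and 4.76), KLF4 (0.03 and 3.66) and NCAM1 (0.26 and 3.38) likewise had differences past the test. In the G1 list 10 of 25 had a lower fold change at 48 h and 2 a higher one. E2F2 was at -0.16 and then -1.86, and CHD5 of the chromatin list went from -0.02 to -1.86. Ribosome biogenesis genes were already at a median of -1.35 at 24 h, and 9 of 36 had a lower fold change at 48 h and 0 a higher one. Serine, one-carbon and amino acid genes had 11 of 31 with a lower one and 2 with a higher one. For CRIM1 of the YAP list the sign turned, from -1.06 to 0.96, and for ADAMTS1, a matrix protease, it went from -0.40 to 2.25. With a term that sets replicates 1 and 2 of shScramble and of the CHD4 hairpins apart from the other libraries, 2553 genes rather than 1519 had a higher and 3039 rather than 1984 a lower fold change at 48 h.

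**Figure D5:**
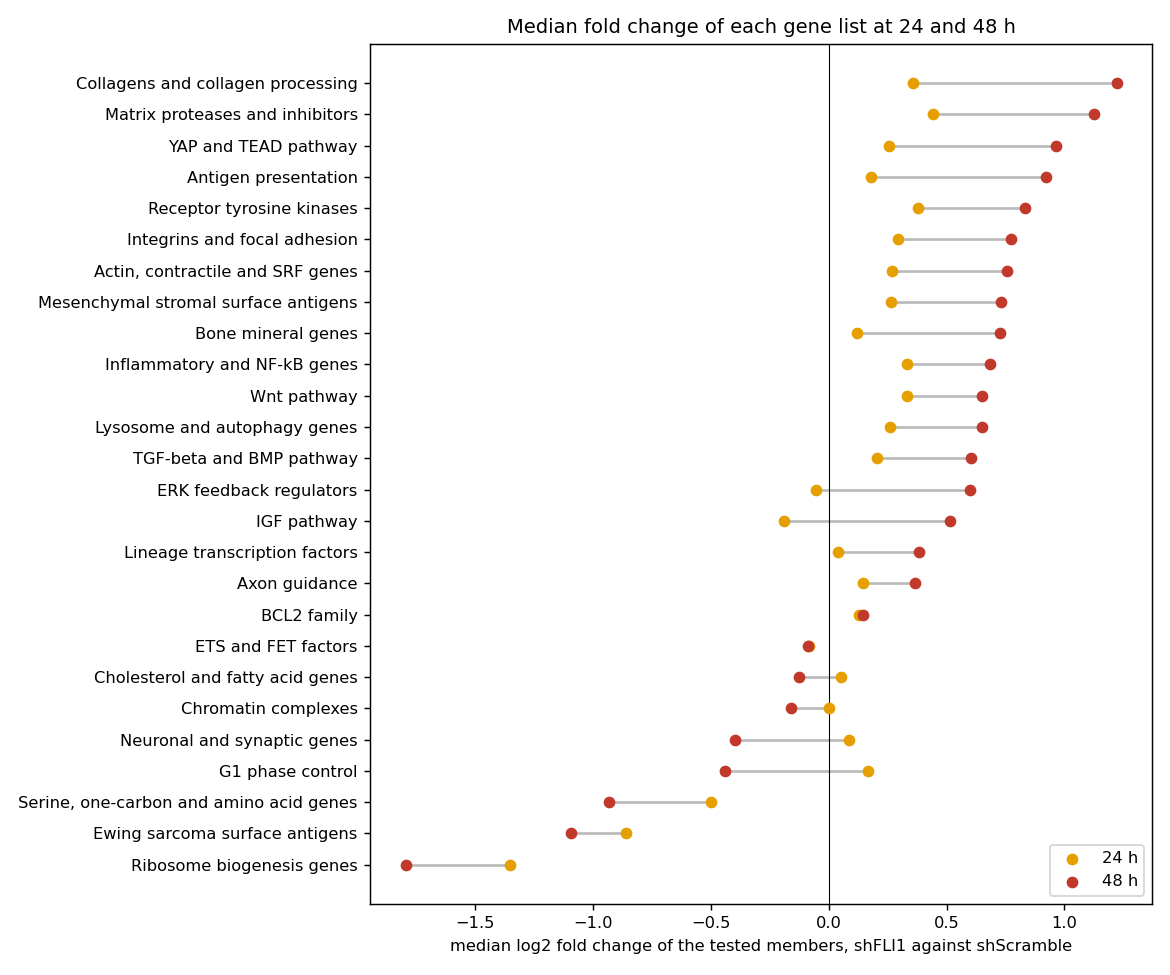
Median log2 fold change of the tested members of each gene list with shFLI1 against shScramble at 24 h (orange) and 48 h (red), joined by a line. The medians of collagens went from 0.36 to 1.22 and those of ribosome biogenesis genes from -1.35 to -1.79.

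Cells with either of 2 hairpins against CHD4, the ATPase of the NuRD complex, received the same drug for the same time, so shFLI1 could also be set against other hairpins that silence a gene. Against the mean of both CHD4 hairpins, 65.7% of genes were called, 32.9% higher and 32.8% lower with shFLI1. The collagen and ribosome lists were divided much as against shScramble. Here 30 of 44 collagen genes were higher and 7 lower, and 32 of 36 ribosome biogenesis genes were lower and 2 higher. Serine, one-carbon and amino acid genes were lower in 23 of 31 and higher in 4. TGFBR3, ROR2 and CALD1 exceeded the CHD4 hairpins by log2 5.26, 5.25 and 3.68, and DKC1 and MTHFD2 lay below them at -2.39 and -0.99. Cholesterol and fatty acid genes divided otherwise. They were higher than with the CHD4 hairpins in 25 of 45 and lower in 8, against 13 and 15 in the comparison with shScramble. Their median log2 fold change against the same shScramble libraries was -0.13 with shFLI1, -0.30 with shCHD4#1 and -0.83 with shCHD4#2, 3 values that share their controls. Replicates 1 and 2 of both CHD4 hairpins held 0.313 to 0.388 percent of reads in processed pseudogenes, against 0.239 to 0.254 percent with shFLI1. Against shScramble replicates 3 to 5 alone the lipid list had 13 higher and 21 lower members. The part of library kind in the list counts against the CHD4 hairpins was not tested.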

How the data were processed

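Total RNA of SK-N-MC cells was sequenced in 28 libraries, of which 8 form the comparison and the others entered shared fits. The submitters' processing notes name FastQC 0.11.7, HISAT2 2.1.0, SAMtools 1.7, featureCounts 1.6.0, DESeq2 1.34.0 and GRCh38. Neither settings nor annotation nor strand option were found in the labels. The authors deposited normalised counts per gene, which are signal values of counts divided by a size factor, and, per the file headers, their own log2 fold changes and p-values. Divided by the worth of 1 read, 100 percent of values came out whole to within 0.02 of a read. Positions and gene types are those of GENCODE 29 on GRCh38, which holds 34232 of the 35488 gene identifiers.

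In R 4.3.3, limma 3.58.1 with a mean-variance trend was fitted to log2(value + 1) of the 21025 genes whose values averaged 10 or more across the 28 libraries, with the 14 libraries and 4 groups of 48 h in 1 fit and Benjamini-Hochberg adjustment at 0.05. A log2 fold change on this scale understates the change of low genes. The difference between 48 and 24 h was an interaction in a fit of all 28 libraries. Genes called higher or lower passed this test, and all adjusted p-values printed here are limma's unless another tool is named. On the recovered reads edgeR 4.0.16 (quasi-likelihood) called 13526 genes and DESeq2 1.42.0 called 13446, of which 13223 and 13072 were called in the same direction by limma.

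By rule the genes to name were FLI1, EWSR1 and CHD4, the 10 largest called rises and falls without overlap by fold and, mitochondrial genes left out, by count, each with a mean of at least 100 in the higher group, and up to 4 called members of each list with the largest change. Other list members are named for their role, and 2 members are counted but not reported here by name. Members, lists and alternatives were chosen with earlier results of these data known. Alternatives were other filters, pseudocounts, scalings, controls, tools, a replicate block and leaving out each replicate. Promoter sequences are RefSeq's, on GRCh38.p14, with a single start for each gene.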

Additional observations from a re-analysis of the deposited data

Results flagged for a closer look

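In 8 genes named by rule, 1 of the 5 shScramble libraries of 48 h lay far from the other 4, as the gap to the nearest library divided by the range of the group was above Dixon's 95% critical value for 5 samples. Chance flags about 1 in 20 groups, and the naming rule picked 149 genes, so 8 flags are near the share that chance gives. TGFB2 was at 179 normalised counts in replicate 1 and at 39.2 to 78.3 in the others, and PHF19, a polycomb protein, at 309 in replicate 1. In replicate 2, COL11A2, a cartilage collagen chain, was at 265, RELB, an NF-kB subunit, at 86.6, and CHD5, a neuronal relative of CHD4, at 210.3, below the 515 to 607 of the others. LINC02013, a lincRNA, was at 340 in replicate 3, DCX at 407 in replicate 4, below the others, and NSG2, a neuronal vesicle protein, at 159 in replicate 5. In each of the 8 genes the 3 shFLI1 libraries lay outside the range of all 5 controls, the distant one included. The naming rule asked for large called changes, and in part for no overlap, so this was largely fixed by the choice of genes.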

How the results depend on the processing

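The counts of genes called against shScramble, and against the CHD4 hairpins, stayed within 1.5 times of the value reported under all alternatives run. Leaving out each replicate gave 6070 to 6774 higher and 6045 to 6738 lower genes against shScramble, and 6227 to 7037 and 6197 to 7036 against the CHD4 hairpins. The count of genes whose fold change differed between 48 and 24 h moved more: 2553 higher and 3039 lower with the library kind as a term, and 2361 higher with a replicate block, with 1089 to 1696 higher and 1410 to 2365 lower when each replicate was left out, and the cause was not tested. List counts moved by more than 1.5 times in 23 of 1092 cases. All alternatives were run for the 149 genes picked by the naming rule, marker lists included, of which 8 changed call or sign under some setting. Genes named for their role were refitted only against shScramble replicates 3 to 5 and without shFLI1 replicate 3, and their changes stand beside their values. EEF1A1 reversed to log2 -0.077 with quantile normalisation. With libraries centred on their medians, the median log2 fold change over tested genes was -0.11 instead of 0.01. Deviations of same-numbered shFLI1 and shScramble libraries had correlations of -0.15, -0.12 and -0.15, and those of differently numbered ones -0.13 to 0.16. As both were of a like size, these values cannot show or exclude a pairing. The numbers were not taken to pair samples, and the replicate block gave 6291 higher genes against shScramble. Genes below a mean of 10 counts were not tested, and 3 shFLI1 libraries, 1 of which stood apart, limit the precision of every fold change.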

Other observations

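Transcripts that do not encode proteins were not part of the lists. Of 1590 tested antisense genes 713 were higher and 247 lower (median log2 0.51), and of 1555 lincRNAs 643 were higher and 266 lower (0.46), while protein-coding genes were at 4662 higher and 5035 lower of 14343 (-0.02). Processed pseudogenes, which are copies of spliced RNAs, were higher in 33 and lower in 266 of 686 (-0.72), a split that was 43 and 193 against shScramble replicates 3 to 5 alone.

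The ETS core CCGGAAGT, read on both strands in the 250 bases before the gene start, was found in 788 of 12147 tested genes (6.49 percent). Among genes called at least 2-fold higher it was in 40 of 2051 (1.95 percent), and among those at least 2-fold lower in 106 of 1545 (6.86 percent). In the ribosome biogenesis list it was in 5 of 29. GGAAGGAA, a pair of the GGAA units bound by EWS-FLI1, was in 2.83 percent of all, 3.41 percent of the higher and 2.4 percent of the lower genes. These shares were not tested, and base composition was not taken into account.

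A few genes varied widely between libraries of 1 group. The transcript AC090950.1, at chr3:15732252-15733470, was at 1009.8 normalised counts in shFLI1 replicate 1 and at 0 in the other 7 libraries of the comparison, but reached 1114 elsewhere in the series. BTD, the biotinidase gene on the same chromosome arm (chr3:15601341-15647640), was at 6879.9, 2706 and 2588 counts in the 3 shFLI1 libraries and at 1103, 557, 3946, 4634 and 3993 in the 5 shScramble libraries, and the groups overlapped. Its highest value in the series was 7504. Its neighbour HACL1 was at 559.8, 609 and 553 with shFLI1 and at 819.6, 746, 764, 776 and 822 in shScramble. In shFLI1 replicate 3 the ion channel partner gene KCNIP4 was at 7914 counts, against 3.54 and 3.45 in replicates 1 and 2, and the nuclear RNA NEAT1 at 4219.7 against 73.2 and 80.5.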
